A study of Rattus norvegicus with 6 samples.

Results

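The collagen genes of rat liver were taken as every row of the deposited expression table whose symbol begins with Col, a chain number, the letter a and a second number. The rule found 44 of 25926 rows. Of these, 43 are collagen chains (11 fibrillar, 6 of the basement membrane collagen type IV and 26 of other types). The remaining row, Col4a3bp, encodes a ceramide transfer protein that shares only the name, and it is left out of every count below.

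Liver RNA came from 2 groups of Sprague-Dawley rats, 3 in each. Controls received 0.9% saline, and the others were kept for 7 days on total parenteral nutrition (TPN, in which all nutrients are infused into a vein). All 6 are labelled as 4 weeks old. The TPN rats carry the disease label PNALD, parenteral nutrition-associated liver disease, and the controls the label normal. The labels do not say how the controls were fed, whether they carried a venous line, or which sex the rats were, and they name no lesion or fibrosis stage. Replicates carry separate sample names, but the labels say nothing further of the animals, so p-values measure the spread between these samples. FPKM is a count of fragments divided by transcript length and by the library's mapped fragments, so levels of different genes can be set side by side.

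Collagens are secreted proteins built of 3 chains wound into a triple helix, a fold that needs glycine at regular steps along each chain. Fibrillar collagens (types I, III, V and relatives) pack into the banded fibrils of portal tracts and scars. Type IV forms the sheet of basement membranes, and the other types decorate fibrils, form beaded filaments, or anchor in or under cell membranes. In liver, stellate cells and portal fibroblasts are the known main source of fibrillar chains, endothelial and bile duct cells lie on type IV, and hepatocytes are known to make type XVIII. Collagen genes are commonly read in liver because their transcripts increase in fibrosis and in growing tissue.

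The livers expressed hepatocyte genes as labelled, with albumin (Alb) between 12828 and 48388 FPKM. Pearson correlations of log2(FPKM + 1) were 0.961 to 0.981 within controls, 0.942 to 0.968 within TPN and 0.920 to 0.961 between groups. Control 2 and TPN 1 stood out within their groups for the acute-phase gene Lcn2, with 112 and 9127 FPKM, against 3.68 and 7.29 in the other controls and 172 and 77.2 in the other TPN livers. Beside some results that move with them, the value without 1 or both of them is given. A result without such a value may also move with them. Read depth could not be recovered from FPKM, so no interval for counting error is given.

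Liver expressed a minority of the family. Of the 43 collagens, 15 averaged 1 FPKM or more across the 6 livers, the level set for testing, and 10 had a mean of at least 5. Col18a1, the chain of type XVIII, a basement-membrane-associated collagen whose end fragment is endostatin, was the most abundant with a mean of 137 FPKM. Col3a1, the only chain of fibrillar type III, followed with 86.4 FPKM. Together they held 63.0% to 77.4% of the summed collagen FPKM of a liver. Next came Col4a1 (14.4 FPKM), Col6a1 (14.2), Col14a1 (10.5), Col4a2 (10.4), Col6a2 (9.05), Col1a2 (7.60), Col1a1 (6.68) and Col5a1 (5.26). Col5a2 (3.46 FPKM), Col13a1 (3.30), Col4a4 (2.83), Col4a5 (2.14) and Col8a1 (1.54) completed the tested set. The nearest chains below the level were Col12a1 (0.754 FPKM) and Col27a1 (0.741).

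**Figure D1:**
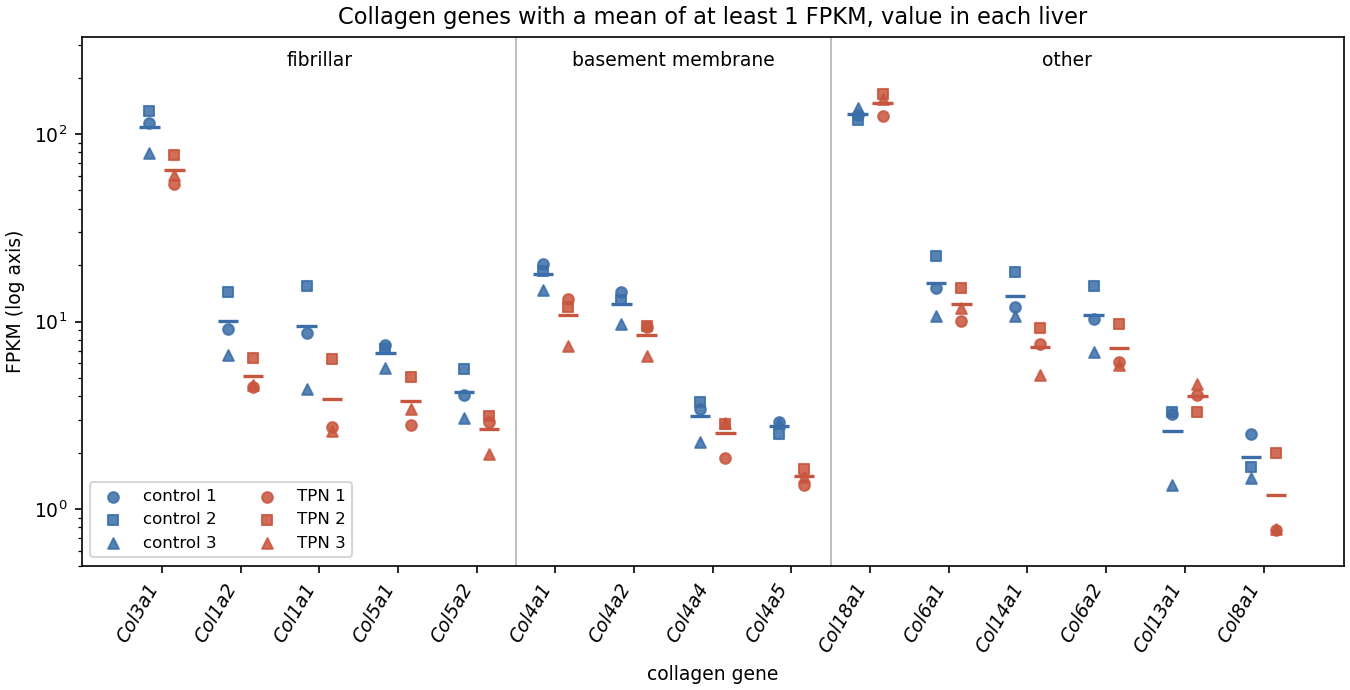
FPKM on a log axis (vertical) of the 15 collagen genes with a mean of at least 1 FPKM (horizontal, by class), with 1 point per liver, blue for control and red for TPN, and a short bar at each group mean. Col18a1 and Col3a1 lie far above the rest, and most red points of the fibrillar and basement membrane chains lie under the blue ones.

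Most expressed collagens were lower in TPN liver, but none passed the test over all genes. Of the 15, 13 had a negative log2 fold change on the log2(FPKM + 1) scale, where 49.1% of the 11362 features tested were negative. The median was -0.50, against 0.0065 over all features tested. In 7 collagens every TPN liver was below every control, against 9.09% of features tested, and in 1, Col13a1, every TPN liver was above, against 8.02%. The 7 lower ones were Col3a1, Col1a2, Col5a1, Col4a1, Col4a2, Col4a5 and Col14a1. With limma (a linear model with variances shared across features) and Benjamini-Hochberg adjustment, 0 of 15 reached an adjusted p under 0.05, where 0.246% of features did (0.22% lower and 0.0264% higher). At an unadjusted p under 0.05 there were 7 lower and 0 higher collagens, against 7.01% lower and 4.44% higher over all features. That count was 4 without control 1, 10 without control 3 and 2 without control 2 and TPN 1 together. Over all features, in either direction, 617 of 11315, 790 of 11359 and 1721 of 11304 were under 0.05 in these 3 fits. With all rats it was 1300 of 11362. The smallest adjusted p was 0.172, for Col4a5. Of the 15, 11 were lower without overlap when control 3 or TPN 2 was left out (11.9% and 12.6% of all features). The number stayed at 7 without control 1, control 2, TPN 1 or TPN 3 (10.2%, 19.1%, 12.7% and 19.8%). It was also 7 when control 2 and TPN 1 were left out together (23.1%). In whole liver, fewer collagen-making cells and less collagen RNA per cell cannot be told apart.

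**Figure D2:**
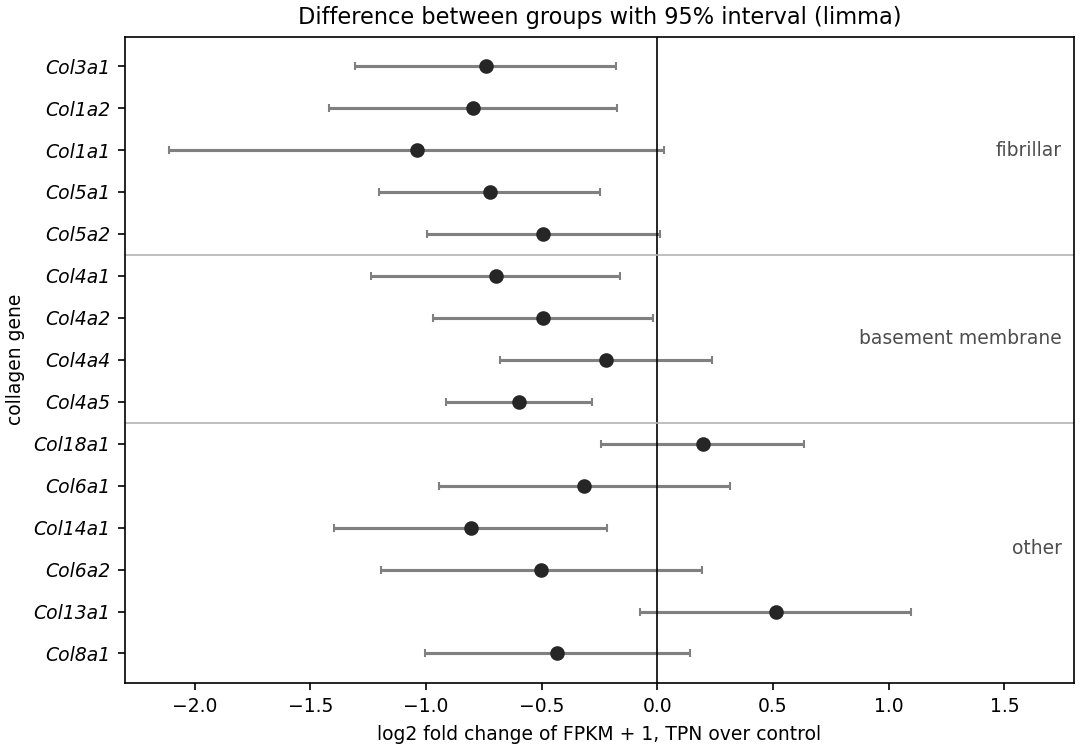
Log2 fold change of FPKM + 1, TPN over control (horizontal), for each of the 15 tested collagens (vertical, by class), with its 95% interval from limma, not adjusted for multiple tests. Points of all 5 fibrillar and all 4 basement membrane chains lie left of 0, and 7 intervals lie wholly left of it.

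Among fibrillar chains, Col3a1 carried most of the RNA. Its FPKM was 115, 132 and 79.5 in controls 1 to 3 and 54.1, 76.9 and 60.8 in TPN 1 to 3. The groups did not overlap, though the lowest control and the highest TPN liver lay close. The means were 109 ± 26.8 and 64.0 ± 11.7 FPKM (SD, n = 3), a ratio of 1.70, and the log2 fold change was -0.74 (SE 0.24, 95% interval -1.30 to -0.18, adjusted p = 0.325 in limma). The log2 fold change of Col3a1 was -0.48 without control 2 and TPN 1 together. Type I, the main collagen of scar, is made of Col1a1 and Col1a2 chains. Col1a2 measured 9.08, 14.5 and 6.60 FPKM among controls against 4.45, 6.41 and 4.603 under TPN, a log2 fold change of -0.80 (SE 0.27, 95% interval -1.42 to -0.17, adjusted p = 0.338 in limma). Its groups were separated by a narrow gap, and the value was -0.52 without control 2. Col1a1 measured 8.66, 15.4 and 4.39 FPKM among controls against 2.74, 6.28 and 2.61 under TPN, so control 3 lay below TPN 2 and the groups overlapped. Its log2 fold change of -1.04 was the most negative of the 15 and also the least precise (SE 0.45, 95% interval -2.11 to 0.03, adjusted p = 0.443 in limma), and it was -0.65 without control 2. The ratio of Col1a1 to Col1a2 was 0.954, 1.06 and 0.665 among controls against 0.616, 0.980 and 0.566 under TPN, with overlap.

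Type V, which joins type I fibrils and limits their width, gave a similar picture. Col5a1 measured 7.50, 7.16 and 5.63 FPKM among controls against 2.82, 5.06 and 3.40 under TPN. Every TPN liver was lower, with means of 6.76 ± 0.998 and 3.76 ± 1.17 FPKM (SD, n = 3) and a log2 fold change of -0.72 (SE 0.21, 95% interval -1.20 to -0.25, adjusted p = 0.262 in limma). Col5a2, its partner chain, measured 4.06, 5.57 and 3.07 FPKM among controls against 2.93, 3.15 and 1.98 under TPN. Its groups overlapped by 1 liver, and the log2 fold change was -0.49 (adjusted p = 0.443 in limma), or -0.31 without control 2. Over the 5 tested fibrillar chains the median log2 fold change was -0.74 and all 5 were negative. Of them 3 were lower without overlap, against 9.09% of all features. The fibrillar median was -0.48 without control 2 and TPN 1 together.

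Promoter sequence from RefSeq (build GRCr8) matched 34 of the 43 collagens and 11 of the 15 tested. The windows are given here because these chains lay lower in TPN together. They were searched on both strands, over the 250 bases before each annotated start, for CCAAT, for the GC box GGGCGG and for the TATA box TATAAA. These motifs do not overlap one another. Over 27457 genes, 34.3% of such windows held CCAAT, 32.4% GGGCGG and 13.1% TATAAA. Of the 11 tested collagens, 3 held CCAAT (Col1a2, Col4a1, Col4a2), 6 GGGCGG (Col18a1, Col4a1, Col4a2, Col4a5, Col5a1, Col8a1) and 2 TATAAA (Col13a1, Col1a2). Below are the first 100 bases of the Col1a2 window (chr4:33518307-33518406, plus strand) and the whole Col5a1 window (chr3:31606630-31606879, plus strand), 5′ to 3′ with motif matches on either strand in capitals.
Col1a2: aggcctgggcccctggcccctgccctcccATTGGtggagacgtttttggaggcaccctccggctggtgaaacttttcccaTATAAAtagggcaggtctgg
Col5a1: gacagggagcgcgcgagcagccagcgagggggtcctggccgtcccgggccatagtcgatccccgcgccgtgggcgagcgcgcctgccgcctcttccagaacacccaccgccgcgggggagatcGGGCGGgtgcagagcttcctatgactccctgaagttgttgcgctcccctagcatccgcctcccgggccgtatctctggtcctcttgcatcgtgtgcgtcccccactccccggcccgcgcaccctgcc
In Col1a2 the reverse form of CCAAT begins 221 bases and TATAAA 170 bases before the annotated start, and Col5a1 holds a GC box 127 bases before it. These are matches of sequence only. Whether any of them acts as a promoter element, or the annotated start is the one used in liver, was not tested.

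Type IV, the basement membrane collagen, was measured through 4 of its 6 chains. Col4a1 and Col4a2, which assemble into the network found under vessels throughout the body, were the abundant pair. Col4a1 measured 20.2, 18.7 and 14.8 FPKM among controls against 13.2, 12.02 and 7.41 under TPN. The groups did not overlap, and the log2 fold change was -0.70 (SE 0.23, 95% interval -1.24 to -0.16, adjusted p = 0.331 in limma), with means of 17.9 ± 2.82 and 10.9 ± 3.04 FPKM (SD, n = 3). Col4a2 measured 14.4, 13.03 and 9.66 FPKM among controls against 9.35, 9.49 and 6.56 under TPN. It did not overlap either, by a narrow gap, with a log2 fold change of -0.50 (SE 0.21, 95% interval -0.97 to -0.02, adjusted p = 0.42 in limma). The ratio of Col4a1 to Col4a2 was 1.41, 1.44 and 1.53 among controls against 1.41, 1.27 and 1.13 under TPN. All 3 TPN ratios lay below every control, TPN 1 by less than the digits shown.

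Col4a5, a chain of the type IV network that is mutated in Alport syndrome, had the smallest p of the family. It measured 2.93, 2.53 and 2.87 FPKM among controls against 1.35, 1.65 and 1.49 under TPN. The rats within each group lay close together and the groups stood well apart. The means were 2.78 ± 0.218 and 1.495 ± 0.146 FPKM (SD, n = 3), a ratio of 1.86, and the log2 fold change was -0.60 (SE 0.14, 95% interval -0.91 to -0.28, adjusted p = 0.172 in limma). It ran from -0.65 to -0.56 when each rat was left out in turn. With a pseudocount of 0.1 in place of 1 the log2 fold change was -0.85, since the larger pseudocount compresses low values. Col4a4 measured 3.41, 3.71 and 2.28 FPKM among controls against 1.88, 2.85 and 2.88 under TPN, with overlap and a log2 fold change of -0.22 (95% interval -0.68 to 0.24, adjusted p = 0.728 in limma). Without TPN 1 it was -0.08, without control 2 -0.12 and without both 0.02. The median of the 4 chains was -0.55, all 4 were negative and 3 were lower without overlap, against 9.09% of all features.

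The type IV genes lie in head-to-head pairs that are read away from a shared stretch of DNA. In RefSeq (GRCr8) the annotated starts of Col4a2 and Col4a1 on chromosome 16 have only 76 bases between them, those of Col4a4 and Col4a3 on chromosome 9 have 412, and those of Col4a6 and Col4a5 on chromosome X have 1414. The whole stretch between the first pair (chr16:84885521-84885596, plus strand, Col4a2 to the left and Col4a1 to the right) and the 250 bases before the start of Col4a5 (chrX:109907109-109907358, plus strand) are printed because these 3 genes were lower without overlap. Capitals mark GC boxes on either strand.
Col4a2 to Col4a1: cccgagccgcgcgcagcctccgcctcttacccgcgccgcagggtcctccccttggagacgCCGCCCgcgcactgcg
Col4a5: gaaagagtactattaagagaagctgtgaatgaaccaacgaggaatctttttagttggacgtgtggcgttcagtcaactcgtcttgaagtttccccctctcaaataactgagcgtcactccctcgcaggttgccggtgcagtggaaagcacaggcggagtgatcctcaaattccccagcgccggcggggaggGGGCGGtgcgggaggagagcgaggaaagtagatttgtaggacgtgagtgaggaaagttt
The short stretch holds a GC box 16 bases before the start of Col4a1, and Col4a5 holds one 59 bases before its own. Levels within a pair were close only for the first. The ratio of Col4a4 to Col4a3 was 5.76, 7.60 and 6.30 among controls against 7.99, 6.33 and 5.94 under TPN, with Col4a3 between 0.235 and 0.592 FPKM. Col4a6 did not exceed 0.106 FPKM in any liver and is listed at 0 in control 3, beside 1.35 to 2.93 FPKM for Col4a5.

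The other types were divided. Col14a1, a fibril-associated collagen that binds the surface of type I fibrils, measured 11.9, 18.3 and 10.7 FPKM among controls against 7.62, 9.25 and 5.19 under TPN. No TPN liver reached the lowest control, and the log2 fold change was -0.81 (SE 0.26, 95% interval -1.40 to -0.22, adjusted p = 0.312 in limma), with means of 13.7 ± 4.09 and 7.35 ± 2.04 FPKM (SD, n = 3). Type VI forms beaded filaments near basement membranes and was measured through Col6a1 and Col6a2. No row of the deposited table carries the symbol Col6a3, another of its chains. Col6a1 measured 15.1, 22.5 and 10.7 FPKM among controls against 10.1, 15.2 and 11.9 under TPN (log2 fold change -0.31, SE 0.27, 95% interval -0.94 to 0.31, adjusted p = 0.719 in limma). Col6a2 measured 10.4, 15.5 and 6.85 FPKM among controls against 6.05, 9.74 and 5.85 under TPN (log2 fold change -0.50, SE 0.30, 95% interval -1.19 to 0.19, adjusted p = 0.575 in limma). Both overlapped between groups. Without control 2 their log2 fold changes were -0.06 and -0.23, and without control 3 -0.56 and -0.77. Col8a1, of the short-chain type VIII made by vessel walls, measured 2.52, 1.67 and 1.47 FPKM among controls against 0.774, 1.999 and 0.781 under TPN (adjusted p = 0.558 in limma).

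Col18a1 and Col13a1 were the only tested collagens with positive log2 fold changes. Col18a1 measured 126, 119 and 138 FPKM among controls against 126, 162 and 153 under TPN. The groups overlapped at TPN 1, the means were 128 ± 9.56 and 147 ± 19.2 FPKM (SD, n = 3), and the log2 fold change was 0.20 (SE 0.19, 95% interval -0.24 to 0.63, adjusted p = 0.751 in limma). It was 0.30 without TPN 1 and 0.12 without TPN 2. The interval holds 0 and does not reach the estimates of Col3a1, Col4a1 or Col14a1, but it overlaps the intervals of all of them. The difference between genes was not tested. Col13a1, a collagen anchored in the cell membrane at adhesion sites, measured 3.22, 3.28 and 1.34 FPKM among controls against 4.05, 3.29 and 4.65 under TPN. All TPN livers were higher, TPN 2 only just, and the log2 fold change was 0.51 (SE 0.25, 95% interval -0.08 to 1.10, adjusted p = 0.495 in limma). It was 0.23 without control 3, the lowest of the livers. The median of the 6 other-type chains was -0.37, with 4 negative, and it was -0.14 without control 2, -0.25 without TPN 1 and -0.03 without both.

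The Col18a1 gene is known to be read from more than one promoter, and the table gives a single value for the gene. The window at its RefSeq start (chr20:11473395-11473644, plus strand) is printed because this chain was the most abundant and was not lower in TPN. Capitals mark GC boxes, here all on the opposite strand.
Col18a1: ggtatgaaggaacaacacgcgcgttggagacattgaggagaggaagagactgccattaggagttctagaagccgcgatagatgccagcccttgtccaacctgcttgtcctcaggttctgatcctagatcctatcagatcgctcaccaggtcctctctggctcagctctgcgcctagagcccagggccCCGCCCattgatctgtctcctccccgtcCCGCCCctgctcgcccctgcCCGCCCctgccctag
They begin 63, 35 and 15 bases before the annotated start.

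Summed by class, fibrillar RNA was 145, 176 and 101 FPKM in the controls and 67.5, 98.5 and 74.6 in TPN. The highest TPN liver fell just short of the lowest control. Type IV RNA was 41.7, 38.6 and 29.95 FPKM among controls against 26.02, 26.5 and 18.8 under TPN, again without overlap. The other types without Col18a1 summed to 46.0, 65.1 and 33.4 FPKM among controls against 31.0, 41.9 and 29.96 under TPN, with overlap. The ratio of the control to the TPN mean was 1.752 for fibrillar, 1.54 for type IV and 1.41 for the others without Col18a1. With Col18a1 the other types summed to 173, 184 and 171 FPKM among controls against 156, 204 and 183 under TPN. These overlapped, with a ratio of 0.97. All collagens together summed to 359, 398 and 302 FPKM among controls against 250, 329 and 276 under TPN. These too overlapped, with a ratio of 1.24. The share of Col18a1 in all collagen FPKM was 35.2%, 29.8% and 45.7% in control and 50.2%, 49.3% and 55.3% in TPN, without overlap. Col3a1 held 32.0%, 33.2% and 26.3% in control and 21.6%, 23.4% and 22.0% in TPN. These sums and shares are descriptions of the class totals, which no test was applied to.

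**Figure D3:**
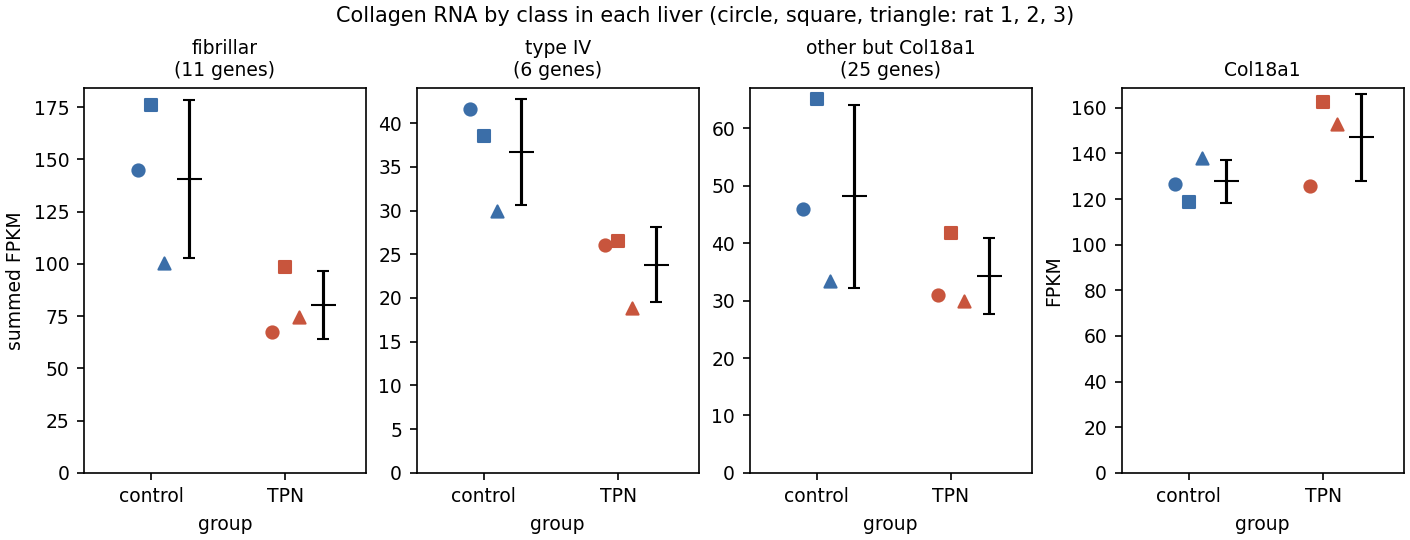
Summed FPKM of fibrillar, type IV and other collagens without Col18a1, and FPKM of Col18a1 (vertical, each axis from 0), in control and TPN livers (horizontal), 1 point per rat with the group mean and SD beside it. Fibrillar and type IV totals do not overlap between groups, while the other types and Col18a1 do.

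Within a group the collagens followed the same animals. Control 3 was the lowest control in 13 of the 15 tested chains, where it was so in 26.2% of all features tested. TPN 2 was the highest TPN liver in 12 of 15, against 20.2% of all features. For the 5 fibrillar chains both held without exception, and control 2 was the highest control in 4 of them. Relative to the control mean, the median fibrillar log2 value was 0.03, 0.36 and -0.42 in controls 1 to 3 and -0.96, -0.38 and -0.81 in TPN 1 to 3. Control 3 and TPN 2 were nearly level, and the other TPN livers lay well below both. For type IV the same medians were 0.15, 0.08 and -0.28 in control and -0.46, -0.42 and -0.70 in TPN. Chains of a liver share its library and its cells, so these counts do not add up as independent observations.

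**Figure D4:**
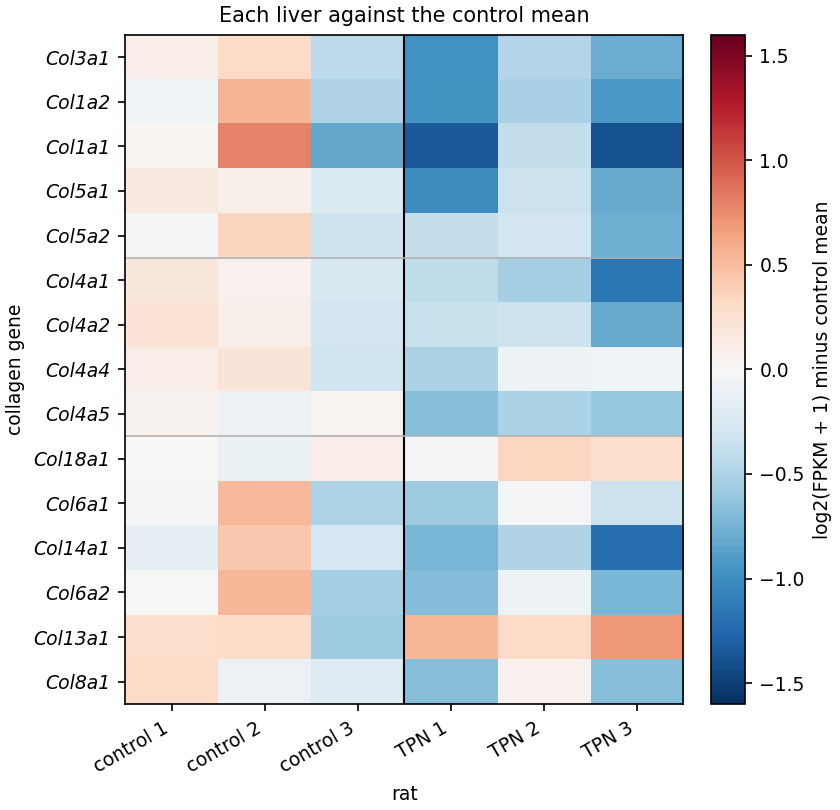
Difference of log2(FPKM + 1) from the control mean (colour, blue lower and red higher) for each tested collagen (rows) in each liver (columns, controls left of the line). Control 3 is the blue column among the controls for most chains, TPN 2 is the palest of the TPN columns, and Col18a1 and Col13a1 run against the rest.

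The other 28 collagens stayed under a mean of 1 FPKM and were not tested. Col2a1 and Col9a1, both chains of cartilage, and Col19a1 and Col23a1 are listed at 0 in all 6 livers, and 12 more are listed at 0 in at least 1 liver. Of the 28, 20 had a mean under 0.1 FPKM. The 5 highest were Col12a1 (0.900 ± 0.234 FPKM among controls against 0.607 ± 0.152 under TPN, SD, n = 3), Col27a1 (0.846 ± 0.311 and 0.636 ± 0.328), Col16a1 (0.671 ± 0.223 and 0.540 ± 0.0361), Col4a3 (0.481 ± 0.116 and 0.390 ± 0.135) and Col6a6 (0.432 ± 0.0481 and 0.343 ± 0.147). Among the 24 with any value, 18 had a lower mean in TPN and 6 a higher one. Of the features tested, all at 1 FPKM or more on average, 9.09% were lower and 8.02% higher without overlap. No share was computed for features below that level. Without overlap 0 of the 24 were higher and 3 were lower, a share near that of the features tested. These were the fibrillar Col5a3 (0.164, 0.190 and 0.199 FPKM among controls against 0.0348, 0.0842 and 0.0441 under TPN), the fibril-associated Col22a1 (0.231, 0.346 and 0.221 FPKM among controls against 0.0396, 0.194 and 0.0688 under TPN) and Col7a1, the anchoring fibril chain (0.0406, 0.0925 and 0.0473 FPKM among controls against 0.0146, 0.00882 and 0.0215 under TPN). These 3 were picked with their values in view, and all lie near the bottom of the scale, where depth is unknown.

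Genes that modify, export, link, bind or break down collagen were read from lists of 113 genes, of which 63 rows reached a mean of 1 FPKM. With all rats, none passed the test over all features. At an unadjusted p under 0.05, 13 were lower and 0 higher. Without overlap, 14 were lower and 1 higher. Over all features these shares were 7.01% and 4.44%, and 9.09% and 8.02%. The median log2 fold change of these rows was -0.10. The lists differed in where the lower members lay.

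The enzymes that hydroxylate and glycosylate new chains in the endoplasmic reticulum were not lower. Of 11 tested rows 3 were negative, the median was 0.13 and none was free of overlap. P4ha1 and P4ha2, catalytic subunits of prolyl 4-hydroxylase, measured 7.00 ± 1.08 and 8.38 ± 1.17 FPKM among controls against 8.07 ± 3.16 and 9.02 ± 2.14 under TPN (SD, n = 3). Plod1, a lysyl hydroxylase, measured 12.6 ± 0.531 FPKM among controls against 13.8 ± 0.992 under TPN, and Plod3 9.19 ± 0.562 and 10.7 ± 1.18. P3h1, a prolyl 3-hydroxylase, measured 24.8 FPKM in TPN 1 and 8.13 to 10.4 in the other 5 livers. P3h3 measured 3.07 ± 0.293 FPKM among controls against 2.46 ± 0.610 under TPN, and Plod2 stayed under 1 FPKM on average (0.860). Many of these enzymes are also expressed by hepatocytes.

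In folding and export, 2 of 6 tested genes were negative, Serpinh1 and Sparc. Serpinh1, the collagen-specific chaperone HSP47, measured 19.1, 22.4 and 12.8 FPKM among controls against 11.7, 14.4 and 11.5 under TPN. TPN 2 lay above control 3, and the log2 fold change was -0.47 (SE 0.22, adjusted p = 0.476 in limma). It was -0.26 without control 2 and TPN 1 together. Sparc, a collagen-binding matrix protein, measured 135, 133 and 100.1 FPKM among controls against 79.3, 104 and 67.9 under TPN (log2 fold change -0.55, SE 0.23, adjusted p = 0.416 in limma). Both repeat the order seen in the fibrillar chains, with control 3 low and TPN 2 high. Ppib, a prolyl isomerase, measured 144 ± 7.89 FPKM among controls against 188 ± 53.3 under TPN (SD, n = 3), with a log2 fold change of 0.35, or 0.14 without TPN 1.

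Propeptide cleavage and cross-linking held the lowest median of these lists, -0.55 over 6 tested genes, with 4 lower without overlap, against 9.09% of all features. Those 4 were Bmp1, Loxl2, Loxl4 and Adamts2, the last by a narrow gap (2.10 FPKM in control 3 and 2.08 in TPN 2). The other 2 were positive, Tgm2 at 0.01 and Pcolce, a booster of propeptide cleavage, at 0.77 (6.32, 57.4 and 6.68 FPKM among controls against 82.2, 20.5 and 8.20 under TPN). Pcolce was highest in TPN 1 and control 2, and its log2 fold change was -0.08 without TPN 1. Bmp1, the protease that trims the end of fibrillar procollagens, measured 26.9, 20.9 and 23.7 FPKM among controls against 15.2, 14.2 and 12.6 under TPN, well apart (log2 fold change -0.73, SE 0.16, adjusted p = 0.172 in limma). The lysyl oxidase Loxl2 measured 7.35, 7.95 and 4.87 FPKM among controls against 2.73, 4.73 and 2.27 under TPN (log2 fold change -0.88, SE 0.25, adjusted p = 0.262 in limma). Loxl4 measured 6.16, 5.63 and 5.51 FPKM among controls against 5.11, 1.34 and 1.42 under TPN (adjusted p = 0.35 in limma). TPN 1 thus lay near the controls for Loxl4, which was -1.05 with all rats and -1.51 without TPN 1. Without TPN 1 it passed the test over all features (adjusted p = 0.0283 in limma), so its call depends on 1 rat. Lox, the founding member of this cross-linking family, had a mean under 1 FPKM and measured 1.803, 1.57 and 0.597 FPKM among controls against 0.326, 0.380 and 0.341 under TPN.

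Among proteins that bind fibrils, 3 of 6 tested were negative and those 3 did not overlap, against 9.09% lower without overlap over all features. Bgn, the proteoglycan biglycan, measured 57.4, 61.9 and 41.8 FPKM among controls against 32.9, 36.9 and 29.5 under TPN (log2 fold change -0.67, SE 0.20, adjusted p = 0.29 in limma). Ogn, osteoglycin, measured 3.96, 4.22 and 2.09 FPKM among controls against 1.56, 2.06 and 2.01 under TPN (adjusted p = 0.378 in limma). Its gap, between control 3 and TPN 2, was narrow. The remaining negative gene, Prelp, was also narrowly apart, with 13.2 FPKM in control 3 and 12.8 in TPN 1 (adjusted p = 0.63 in limma). Decorin (Dcn) lay the other way, with 5.34 ± 2.15 FPKM among controls against 7.18 ± 0.948 under TPN (SD, n = 3). Its log2 fold change was 0.41, or 0.67 without control 2. Fn1, fibronectin, which hepatocytes secrete into plasma, measured 290.1, 395 and 324 FPKM among controls against 607, 500.0 and 391 under TPN, overlapping by 1 liver, with a log2 fold change of 0.56 (SE 0.25, adjusted p = 0.443 in limma), or 0.41 without TPN 1.

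The partners of type IV in basement membranes were all negative, 10 of 10 tested, with a median of -0.36 and 5 lower without overlap. Over all features 49.1% were negative and 9.09% lower without overlap. Nid1 and Nid2, the nidogens that bridge laminin and type IV, measured 10.9, 10.6 and 8.46 and then 2.27, 1.64 and 1.64 FPKM in control. In TPN they measured 5.94, 7.80 and 7.46 and then 0.741, 1.22 and 0.796 FPKM (log2 fold changes -0.45 and -0.57, adjusted p = 0.378 and 0.277 in limma). The perlecan gene Hspg2, which the table lists under a clone name, measured 2.21, 2.71 and 1.57 FPKM among controls against 1.22, 1.23 and 1.25 under TPN (adjusted p = 0.351 in limma). The laminin chain Lamc1 measured 5.80 ± 0.445 FPKM among controls against 4.36 ± 0.297 under TPN (SD, n = 3).

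Enzymes of collagen breakdown and their inhibitors were negative in 6 of 8 tested genes (median -0.25). Mmp2, a gelatinase that also cleaves type IV, measured 7.35, 6.96 and 4.44 FPKM among controls against 2.69, 4.25 and 2.99 under TPN, lower in every TPN liver (log2 fold change -0.74, SE 0.22, adjusted p = 0.274 in limma). Mmp15 had a mean of 7.46 ± 4.13 FPKM among controls against 2.55 ± 1.10 under TPN (SD, n = 3), with overlap, and Mmp14, the membrane protease that activates Mmp2, 23.0 ± 3.29 and 28.8 ± 5.15. The log2 fold change of Mmp15 was -1.15, or -1.62 without control 2. Timp1, an inhibitor of these proteases, measured 4.41, 7.22 and 4.07 FPKM among controls against 4.81, 5.09 and 2.86 under TPN (adjusted p = 0.773 in limma).

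Of the 3 tested collagen receptors 1 was lower without overlap, against 9.09% of all features. It was the integrin Itga1 (7.17 ± 0.292 FPKM among controls against 5.56 ± 0.649 under TPN, SD, n = 3, adjusted p = 0.447 in limma). Its partner Itgb1 measured 45.7 ± 3.95 and 45.8 ± 3.59 FPKM, and Ddr1 3.77 FPKM in TPN 1 and 0.435 to 0.979 in the other 5 livers. The profibrotic TGF-beta and PDGF list was negative in 9 of 13 tested genes (median -0.12), with 0 lower and 1 higher without overlap, a share of the list near the 8.02% of all features. Tgfb1, the ligand, measured 5.603 ± 1.92 FPKM among controls against 5.29 ± 1.25 under TPN. Its target Ctgf, connective tissue growth factor, measured 1.95 ± 0.570 FPKM among controls against 1.66 ± 0.616 under TPN (adjusted p = 0.846 in limma). The gene higher without overlap was the receptor Tgfbr1, with 5.48, 5.43 and 5.75 FPKM among controls against 11.03, 6.92 and 5.85 under TPN (adjusted p = 0.525 in limma). Its log2 fold change was 0.40 with all rats and 0.17 without TPN 1. Tgfbr3 and the signal carrier Smad3 overlapped (adjusted p = 0.685 and 0.751 in limma).

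**Figure D5:**
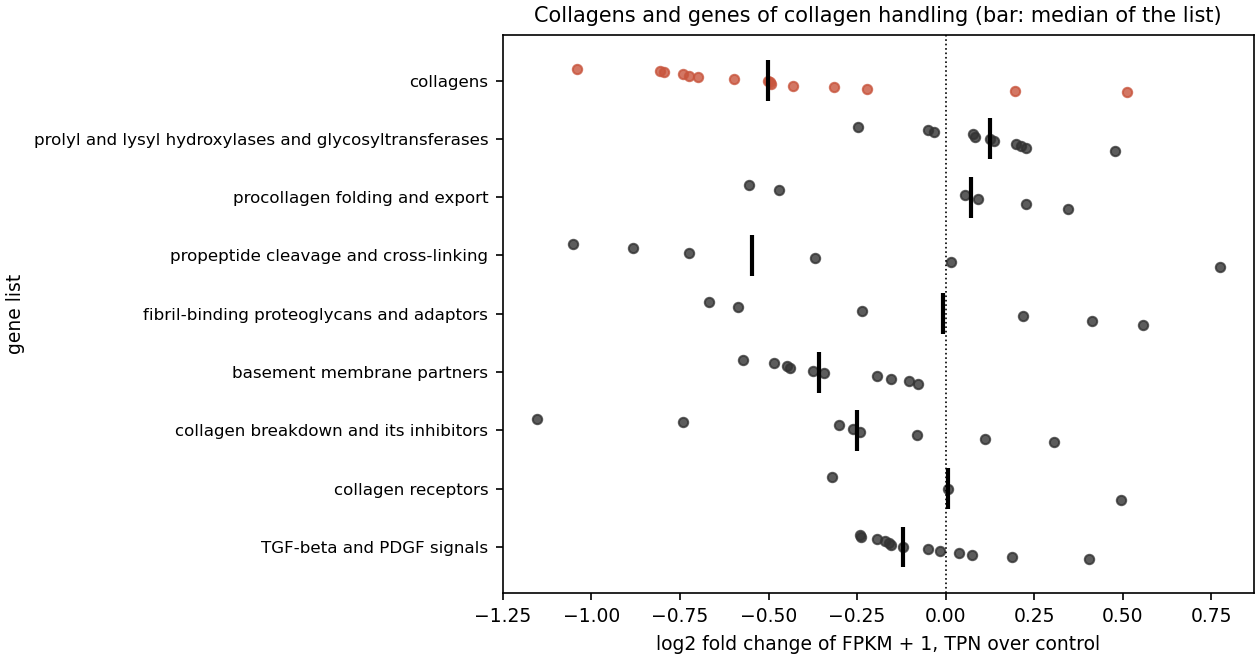
Log2 fold change of FPKM + 1, TPN over control (horizontal), of each tested collagen (red) and of each tested gene in 8 lists of collagen handling (black), with a bar at the median of each list. Members of the basement membrane list all lie left of 0, while modifying enzymes and receptors centre near or right of it.

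Markers of the cells that make collagen were read beside these values. Stellate cell and fibroblast markers summed to 66.0 to 93.5 FPKM in control and 54.2 to 77.9 in TPN. Of 10 tested, 7 were negative (median -0.19) and none is listed at 0 in all livers. Only 1 was lower without overlap, a share near the 9.09% of all features. That marker was Lrat, which esterifies retinol in quiescent stellate cells, with 15.5, 11.5 and 13.7 FPKM among controls against 2.68, 5.24 and 5.86 under TPN (adjusted p = 0.0882 in limma). Its adjusted p in limma was 0.0458 without control 2 and TPN 1 together, a setting chosen after seeing the data in which 121 features passed. Acta2, the smooth muscle actin of activated stellate cells, measured 4.86, 5.62 and 1.88 FPKM among controls against 4.13, 4.74 and 1.69 under TPN, and desmin (Des) 0.937 ± 0.336 and 0.957 ± 0.412 (SD, n = 3). The 3 tested markers with positive values were Hgf (6.06 ± 1.88 FPKM among controls against 8.88 ± 2.01 under TPN, SD, n = 3), Rgs5 (6.45 ± 0.938 against 7.85 ± 0.784) and Cygb (2.32 ± 0.762 against 2.79 ± 0.869), all with overlap. Thy1, a marker of portal fibroblasts, stayed under a mean of 1 FPKM, with 1.01, 0.294 and 0.381 FPKM among controls against 0.156, 0.0938 and 0.0360 under TPN.

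Endothelial markers summed to 82.8 to 129 FPKM in control and 95.9 to 119 in TPN, with 0 of 11 free of overlap (median -0.06). Cholangiocyte markers summed to 15.5 to 24.1 FPKM in control and 11.5 to 15.4 in TPN. All 3 tested were negative and 2 were lower without overlap, Epcam and Krt19, against 9.09% of all features. Kupffer cell and macrophage markers summed to 288 to 437 FPKM in control and 353 to 519 in TPN, with 3 of 8 higher without overlap (Marco, Cd68 and Cd163), against 8.02% of all features. Vsig4, Adgre1 and Csf1r were positive with overlap, and the other 2, Clec4f and C1qa, were negative with overlap (log2 fold changes -0.28 and -0.03). The counts of negative members of each list moved by at most 1 under other scalings. Mesothelial markers summed to 1.64 to 3.44 FPKM in control and 0.726 to 1.93 in TPN, and smooth and striated muscle markers to 14.2 to 16.7 and 9.24 to 11.8, with Acta1 and Mb listed at 0 in all livers. Cell cycle markers were lower without overlap in 7 of 7 tested genes, of which 4 passed over all features, and summed to 22.8 to 37.1 FPKM in control and 4.70 to 6.83 in TPN. Erythroid markers were lower without overlap in 6 of 6, of which 4 passed. Over all features 9.09% were lower without overlap and 0.22% passed as lower. Hepatocyte markers summed to 61478 to 82348 FPKM in control and 41093 to 69048 in TPN. Leaving out control 1, TPN 2 or TPN 3, testing with no filter, median-ratio scaling and quantile normalisation each ended all of these cell cycle and erythroid calls (smallest adjusted p in limma 0.053 to 0.148). The part of these cell types and of growth in the collagen values was not tested.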

How the data were processed

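The authors deposited 1 table of FPKM, with 1 column per rat, matched to samples by name. Bowtie 0.12.2, Cufflinks and build Rnor_6.0 are named in the submitters' processing notes. The sources used here do not give their roles, the annotation or the strandedness. Ratios of values under 0.3 FPKM showed no steps of whole reads (at most 0.853% in 1 bin of 0.01 log2), so depth is unknown.

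Features averaging 1 FPKM or more were tested on log2(FPKM + 1). The tool was limma 3.58.1 (R 4.3.3, statmod 1.5.0), using trend and robust moderation, group as the only term, and 2-sided p adjusted over all 11362 features by Benjamini-Hochberg. An exact test of 3 against 3 cannot go below 0.10. The script was tested on simulated data. Fold changes on this scale understate low genes. Collagen classes, lists and alternatives were chosen with earlier results of these data known. Of 113 pathway genes, those under older names were matched through RefSeq synonyms, and Crtap holds 2 rows. Values per rat were given for collagens with a mean of at least 5 FPKM and for the 2 with the smallest p of each class. The 3 members of each pathway list with the smallest p were named, with 14 set genes. Some of these are given per rat and others by a mean or an adjusted p only. Other per-rat values, marker genes included, were chosen with their values in view. Alternatives were another pseudocount, other filters and scalings, plain moderation, a replicate block, summed symbols and each rat left out. Col9a3, Col12a1, Col14a1, Col1a1, Col22a1, Col25a1, Col2a1, Col3a1 and Col6a2 had no promoter match. Figures were drawn with matplotlib 3.10.9.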

Additional observations from a re-analysis of the deposited data

How the results depend on the processing

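The sign and the call of the 15 collagens held in 233 of 235 fits over 16 alternatives, and no collagen passed in any of them (smallest limma adjusted p 0.135, with the replicate number as a block). The exceptions were Col4a4 (0.023) and Col6a1 (0.072) without control 2 and TPN 1 together, an alternative chosen after seeing the data. When each rat was left out in turn, medians ran from -0.68 to -0.39 for all collagens, -0.95 to -0.59 for fibrillar, -0.61 to -0.40 for basement membrane and -0.57 to -0.14 for other types. With no filter the median was -0.11 for all collagens (39 chains) -0.34 for fibrillar, -0.36 for basement membrane and -0.04 for other types, since chains near 0 FPKM give values near 0 on this scale. Scaling moved the median of all features by at most 0.03 (median-ratio 0.02, quantile 0.03, TPM 0.02, against 0.01).

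The 28 calls over all features became 18 with a pseudocount of 0.1, 0 with no filter (1898 at an unadjusted p under 0.05), 6 with a mean of at least 5 FPKM, 0 after median-ratio scaling or quantile normalisation (1556 and 1592 unadjusted), and 8 with plain moderation. They numbered 121 without control 2 and TPN 1 together, and 0 to 46 without single rats (0 without TPN 3). The cause was not tested. With the replicate number as a block there were 58. In that fit 10 collagens had an unadjusted p under 0.05 in limma, against 7 without the block, and 5 fibrillar chains against 3. The labels do not say whether the numbers pair the rats. Deviations from group means correlated at -0.21, -0.14 and 0.32 for numbers 1 to 3, and control 2 went best with TPN 1 (0.42). Deviations of 3 rats from their own mean are tied together, so these values cannot exclude a pairing. The unknown depth limits what can be said of chains under 1 FPKM.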

Other observations

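Proteins with a collagen-like stretch that carry other names were read in a list of 31 genes made after the data were seen, of which 15 were tested and none passed limma's test over all features (4 at an unadjusted p under 0.05). Their median log2 fold change was -0.16, and 11 of the 15 were negative. Without overlap 3 were lower and 2 higher, against 9.09% and 8.02% of all features. Every TPN liver was lower than every control for Mbl2, a mannose-binding lectin (103, 57.8 and 76.3 FPKM among controls against 41.0, 50.6 and 45.4 under TPN, adjusted p = 0.312 in limma), for Fcna, a ficolin (35.5, 35.2 and 29.7 FPKM among controls against 15.9, 25.4 and 23.6 under TPN, adjusted p = 0.334 in limma), and for Emid1 (adjusted p = 0.39 in limma). Every TPN liver was higher for the macrophage scavenger receptors Marco (74.0, 67.1 and 62.5 FPKM among controls against 169, 141 and 95.7 under TPN, adjusted p = 0.206 in limma) and Msr1 (adjusted p = 0.573 in limma). Mbl1 measured 154 ± 5.19 FPKM among controls against 161 ± 11.8 under TPN (SD, n = 3). The complement chains C1qa, C1qb and C1qc overlapped between groups, with limma adjusted p from 0.912 to 0.999.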
